A study of Mus musculus with 20 samples.

Results

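Livers of old and young B6-mtAKR mice were compared by sequencing of total RNA. The comparison took 5 old mice of 19 months and 5 young mice of 3 to 4 months, 10 of the 20 mice of the series, and left out the 10 plain B6 mice. Mice were chosen by their labels alone. B6-mtAKR is a conplastic strain, in which the nuclear genome is that of C57BL/6J (B6) and the mitochondrial DNA (mtDNA) comes from AKR/J mice. The labels describe its mtDNA as carrying a higher level of heteroplasmy, a mixture of mtDNA versions within cells, at the origin of light-strand replication (OriL). Both age groups share this mtDNA and differ only in age as far as the labels say. Among the young mice, replicates 1 and 4 were 3 months old and replicates 2, 3 and 5 were 4 months old, and they are called young 1 to young 5 below, with the old mice called old 1 to old 5. According to the methods of the study, mice ate freely and lived under a daily cycle of light and dark. The hour at which each liver was taken, the sequencing batch and the heteroplasmy level of each mouse were not analysed here, because the labels do not give them.

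The deposited estimated counts summed to between 67157371 and 93051919 per young mouse and between 79908293 and 91231064 per old mouse. Levels are given in CPM (counts per 1000000 counts after TMM scaling between mice), with no division by gene length. Values per mouse are listed in replicate order, and a value given for a gene without a unit is its log2 fold change, old minus young, with the adjusted p from edgeR. Genes of the mtDNA took 7.49 to 16.4% of the counts in young and 7.61 to 15.9% in old mice. Albumin (Alb) and the other measured markers of hepatocytes, the main cells of liver, summed to 91943 to 125685 CPM in the young and 93203 to 175903 CPM in the old mice, so the tissue label was borne out by its defining markers. Markers of pancreas, fat and gallbladder summed to 11.6 to 31.9 CPM in young and 9.46 to 13.9 CPM in old mice. Of these, the pancreatic Cela1 was at -0.93, adjusted p = 0.0609 and the trefoil factor Tff2 at 0.30, adjusted p = 0.758. The Y-linked genes Ddx3y and Eif2s3y were at or below 0.0369 CPM in each of the 10 mice, and the Y-linked Uty (0.63, adjusted p = 0.334) and Kdm5d (-0.32, adjusted p = 0.488), which have close relatives on the X chromosome, were at or below 0.995 CPM. Snhg11, an RNA kept in the nucleus, was at 0.052, adjusted p = 0.947. In bulk tissue, fewer cells of a type and less RNA per cell cannot be told apart, which holds for every gene and marker list below.

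The liver keeps a daily clock that runs in nearly every hepatocyte. In it, BMAL1 (encoded by Arntl) pairs with CLOCK or its relative NPAS2, binds E-boxes in DNA and switches on the Per and Cry genes, whose proteins in turn block the pair. The same pair switches on the nuclear receptors REV-ERB alpha and beta (Nr1d1 and Nr1d2), which compete with ROR receptors and silence Arntl, Npas2 and Nfil3, and it drives the PAR bZIP factors DBP, TEF and HLF, which bind D-boxes and are opposed by NFIL3. Through these factors, many genes of drug, sugar, lipid and haem metabolism in the liver rise and fall over the day. Genes of the core clock and its known liver outputs were therefore kept apart from all other genes.

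**Figure D1:**
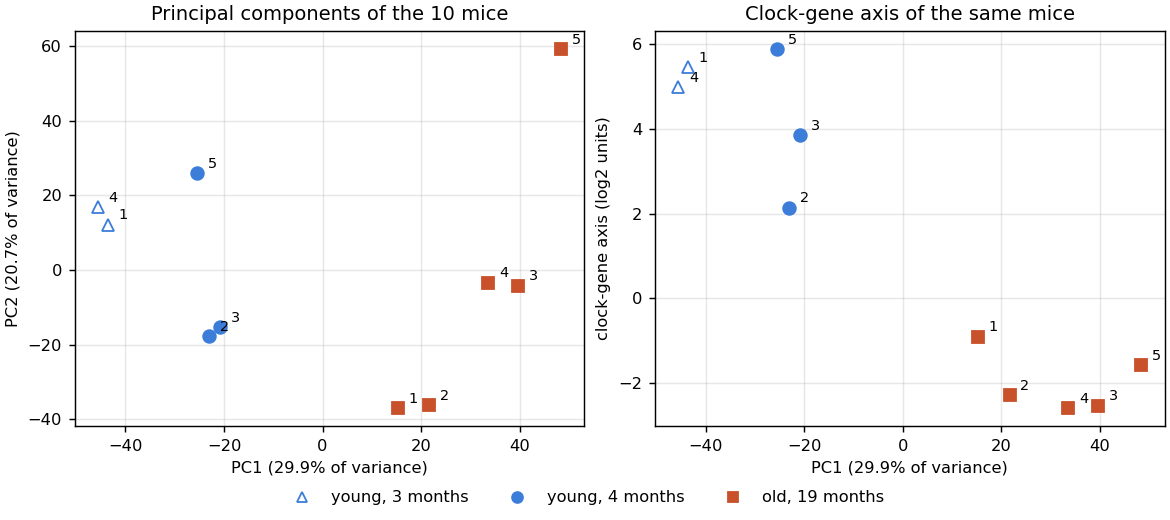
Each point is 1 of the 10 mice, numbered by replicate: open triangles are young mice of 3 months, filled circles young mice of 4 months and squares old mice of 19 months. The left panel plots the first 2 principal components of log2 expression and the right panel the clock-gene axis in log2 units against the first component. The age groups separate on both the first component and the clock-gene axis, and old 5 lies apart from the other mice on the second component.

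The first principal component, with 29.9% of the variance, separated the 2 age groups, and on the second, with 20.7%, old 5 lay apart at 59.1 while the other 4 old mice lay between -37.0 and -3.44. The mean log2 level of 8 genes that the BMAL1 pair drives directly or through its targets (Dbp, Tef, Hlf, Per2, Per3, Nr1d1, Nr1d2 and Ciart) minus that of Arntl, Clock and Npas2 served as a clock-gene axis. It ran from 2.14 to 5.88 in the young and from -2.59 to -0.909 in the old mice, with no overlap. The age groups thus differed in the state of the clock genes in all 10 livers. The hour of sampling and age cannot be told apart in these mice, and this limit applies to every difference reported below.

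In old mice the clock activators Npas2 and Arntl were higher, and the D-box factors Dbp and Tef and the repressor Per3 were lower, as was the clock-controlled transporter Slco1a1. Outside the clock lists, the glucose-releasing G6pc, the tubulin Tubb2a and the cochaperone Bag3 were higher, and the P450 gene Cyp2c54, the growth factor receptor Egfr and the Kupffer cell gene Timd4 were lower. Of 15408 genes tested, 1031 (6.69%) were called, which means that the quasi-likelihood test of edgeR gave them an adjusted p under 0.05. In the old mice 569 genes (3.69%) were higher and 462 (3.00%) lower. The difference was at least 2-fold for 280 of the higher and 143 of the lower genes. The values of the age groups did not overlap for 1291 genes (8.38%), of which 829 were called. Of the called genes, 21 were on the clock lists and 1010 were not. The number of called genes was 405 without young 1, 415 without old 3, 495 without old 2, 514 without young 5, 626 without young 4 and 670 without young 3. It was 379 when only the young mice of 4 months were used, which leaves 3 young mice. Of 116 called genes followed by name, 50 were not called in that fit (adjusted p up to 0.188). Most of these also depended on single mice, as given with each gene, but 13 did not. The 13 were Per3 (adjusted p = 0.0547), Ciart (0.0507), Adcy1 (0.0587), Ccne1 (0.0656), Cyp2d9 (0.0627), Fmo2 (0.0739), Igkc (0.0814), Jchain (0.0854), Loxl1 (0.0534), Hbb-bs (0.0652), Hbb-bt (0.0613), Gm7609 (0.0614) and Gm21049 (0.0925). With the clock-gene axis in the model, 0 genes were called by edgeR (smallest adjusted p 0.16), and 955 had an unadjusted p under 0.05. The axis comes from the same mice and does not overlap between the age groups, so this fit cannot tell age from the axis.

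**Figure D2:**
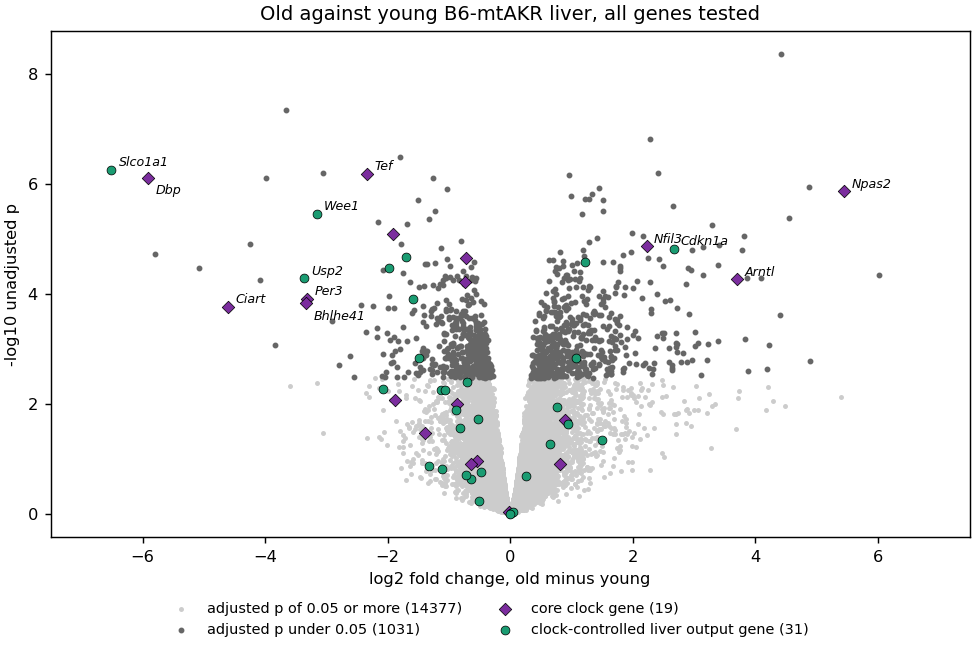
Each point is 1 of the 15408 genes tested, with the log2 fold change (old minus young) on the horizontal axis and -log10 of the unadjusted edgeR p on the vertical axis. Dark grey marks the 1031 called genes, diamonds the 19 core clock genes and green circles the 31 clock-controlled liver output genes. Slco1a1 and Dbp lie at the far left, at log2 fold changes of -6.51 and -5.91, and Npas2 lies to the right at 5.45.

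Of the 19 core clock genes, 3 rose and 8 fell in old mice and 8 were not called, against 6.69% called among all genes. Within the list, 2 of 5 activators rose, 1 of 11 repressors rose and 5 fell, and all 3 PAR bZIP factors fell. The promoters of the 11 called core clock genes are the regions in which the clock's own binding sites would be looked for, so they were read from RefSeq (GRCm38.p6), from 250 bases before to 50 bases after each start site. All 11 genes matched the table. The E-box (CACGTG) was found in the windows of 3 of the 11 genes (Ciart, Tef and Bhlhe41) and in 7.15% of all 32851 promoters. The D-box (TTATGTAA or TTACGTAA) was found in 1, Per3, and in 1.06% of all promoters. The core ROR site (AGGTCA) was found in 3, Arntl (second start site), Nr1d2 and Nfil3, and in 16.3% of all promoters. Both strands were searched, and no match overlapped a match of another motif. A gene was counted if any of its windows had a match, while the percentages count each window singly, so the shares are not strictly alike. A match is a description of the letters only. The 250 bases before the start site are shown for the 4 genes with an E-box or D-box, in lower case with each match in capitals.
Ciart (chr3:95882229-95882478, minus strand): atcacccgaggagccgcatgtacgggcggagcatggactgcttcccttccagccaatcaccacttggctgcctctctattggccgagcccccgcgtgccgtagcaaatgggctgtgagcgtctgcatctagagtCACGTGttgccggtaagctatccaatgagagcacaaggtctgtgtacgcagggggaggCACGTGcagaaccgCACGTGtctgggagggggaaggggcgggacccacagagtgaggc
Per3 (chr4:151044666-151044915, minus strand): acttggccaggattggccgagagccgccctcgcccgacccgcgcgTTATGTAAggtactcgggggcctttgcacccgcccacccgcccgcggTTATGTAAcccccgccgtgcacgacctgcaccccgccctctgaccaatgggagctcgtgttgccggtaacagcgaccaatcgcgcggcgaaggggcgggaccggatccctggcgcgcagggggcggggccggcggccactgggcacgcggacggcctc
Tef, first start site (chr15:81802423-81802672, plus strand): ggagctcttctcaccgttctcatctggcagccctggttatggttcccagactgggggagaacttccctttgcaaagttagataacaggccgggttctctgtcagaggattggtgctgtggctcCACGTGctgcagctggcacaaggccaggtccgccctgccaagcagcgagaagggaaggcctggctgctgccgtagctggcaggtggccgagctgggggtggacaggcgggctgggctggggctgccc
Bhlhe41 (chr6:145865421-145865670, minus strand): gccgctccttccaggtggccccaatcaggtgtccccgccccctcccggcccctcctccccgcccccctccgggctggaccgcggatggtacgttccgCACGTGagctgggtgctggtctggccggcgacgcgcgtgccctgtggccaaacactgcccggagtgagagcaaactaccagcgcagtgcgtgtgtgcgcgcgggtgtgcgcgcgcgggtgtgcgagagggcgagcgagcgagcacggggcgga
Counted back from the start site, the E-boxes of Ciart begin at -116, -58 and -44, the D-boxes of Per3 at -205 and -158, the E-box of Tef at -127 and that of Bhlhe41 at -153. The second start site of Tef, whose window is not shown, also has an E-box, at -138. All 4 genes were lower in old mice.

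Among the activators, Arntl (ENSMUSG00000055116, chromosome 7 from 113207465 to 113314126 of GRCm38, GENCODE M21) stood at 0.664, 5.16, 1.92, 1.61 and 0.377 CPM in the young mice and 20.7, 27.8, 25.9, 29.3 and 24.4 CPM in the old mice. Npas2 (ENSMUSG00000026077, chromosome 1 from 39193731 to 39363236) stood at 0.0712, 0.610, 0.234, 0.0306 and 0.134 CPM in the young mice and 7.97, 15.9, 10.1, 9.49 and 6.10 CPM in the old mice. Every old mouse was above every young mouse for both genes. The log2 fold change was 5.45 (SE 0.58, adjusted p = 0.00128) for Npas2 and 3.71 (SE 0.58, adjusted p = 0.00731) for Arntl. Their shared partner Clock stood at 13.7, 41.3, 29.9, 15.5 and 11.8 CPM in the young mice and 49.2, 49.5, 33.7, 39.5 and 36.2 CPM in the old mice. The groups overlapped, since young 2 and young 3 were near the old mice, and Clock was not called, at 0.89 (SE 0.33, adjusted p = 0.124). The ROR gene Rora (-0.014, adjusted p = 0.958) was not called either.

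The D-box activators moved the other way. Dbp (ENSMUSG00000059824, chromosome 7 from 45705088 to 45710203) stood at 85.9, 61.9, 131, 65.0 and 213 CPM in the young mice and 3.61, 1.10, 0.727, 1.03 and 2.76 CPM in the old mice. The old mice were all far below the young ones, by 60.3-fold on the means and with a log2 fold change of -5.91 (SE 0.58, adjusted p = 9.92e-04). Tef stood at 214, 92.1, 142, 169 and 235 CPM in the young mice and 44.3, 32.5, 24.3, 32.6 and 34.9 CPM in the old mice. Tef had a log2 fold change of -2.34 (SE 0.25, adjusted p = 9.92e-04). Hlf stood at 42.5, 36.2, 47.9, 44.7 and 52.2 CPM in the young mice and 29.2, 27.3, 26.9, 28.1 and 24.5 CPM in the old mice, a smaller difference of -0.72 (SE 0.11, adjusted p = 0.00598). For all 3 the groups did not overlap. Nfil3, which represses at the same D-boxes, stood at 12.6, 14.1, 6.82, 13.4 and 4.82 CPM in the young mice and 31.6, 45.6, 51.1, 67.4 and 47.2 CPM in the old mice and rose, with a log2 fold change of 2.23 (SE 0.31, adjusted p = 0.00476).

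Among the repressors of the core loop, Per3 stood at 25.4, 4.43, 9.22, 24.6 and 23.4 CPM in the young mice and 3.68, 1.81, 0.851, 1.50 and 0.857 CPM in the old mice. It fell, with a log2 fold change of -3.31 (SE 0.57, adjusted p = 0.0110), and young 2 and young 3 were the young mice nearest to the old ones. Ciart, which encodes a repressor that binds BMAL1, stood at 11.5, 1.43, 3.67, 4.85 and 13.8 CPM in the young mice and 0.732, 0.144, 0.0863, 0.0275 and 0.435 CPM in the old mice. Ciart had a log2 fold change of -4.60 (SE 0.82, adjusted p = 0.0129). Bhlhe41, which encodes the E-box repressor DEC2, stood at 0.605, 2.29, 3.10, 0.413 and 3.27 CPM in the young mice and 0.155, 0.196, 0.123, 0.138 and 0.354 CPM in the old mice. Bhlhe41 had a log2 fold change of -3.33 (SE 0.60, adjusted p = 0.0120), and here young 1 and young 4 were nearest to the old mice. Nr1d2 stood at 102, 80.6, 98.7, 89.0 and 102 CPM in the young mice and 36.2, 28.3, 11.0, 20.9 and 28.8 CPM in the old mice and fell, with a log2 fold change of -1.91 (SE 0.25, adjusted p = 0.00357). Cry2 stood at 34.6, 26.2, 38.7, 33.6 and 34.4 CPM in the young mice and 21.4, 22.4, 18.6, 16.3 and 21.3 CPM in the old mice and fell, with a log2 fold change of -0.74 (SE 0.12, adjusted p = 0.00731). In each of these 5 genes all old mice lay below all young mice.

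Other core clock genes overlapped between the ages and were spread among the young mice. Nr1d1 stood at 19.2, 126, 113, 17.2 and 51.0 CPM in the young mice and 41.0, 22.8, 14.5, 14.6 and 31.7 CPM in the old mice. It was lowest in the 3-month-old young 1 and young 4 and highest in young 2 and young 3, and it was not called, at -1.39 (SE 0.57, adjusted p = 0.170). Cry1 stood at 17.1, 4.78, 3.67, 21.2 and 5.07 CPM in the young mice and 12.5, 16.7, 13.9, 23.0 and 24.8 CPM in the old mice, with the 3-month-old mice inside the range of the old ones, at 0.81 (SE 0.48, adjusted p = 0.335). Per2, at -1.88 (SE 0.58, adjusted p = 0.0805), Per1, at -0.53 (SE 0.30, adjusted p = 0.312), and Bhlhe40, at -0.87 (SE 0.28, adjusted p = 0.0870), were not called. For Nr1d1, Cry1 and Per3 the 3-month-old young 1 and young 4 lay on one side of the 4-month-old young 2 and young 3. Young 5, also 4 months old, lay between them for Nr1d1 (51.0 CPM) and near young 2 and young 3 for Cry1 (5.07 CPM). For Per3 it lay near the 3-month-old mice, so the split did not follow age in months throughout.

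**Figure D3:**
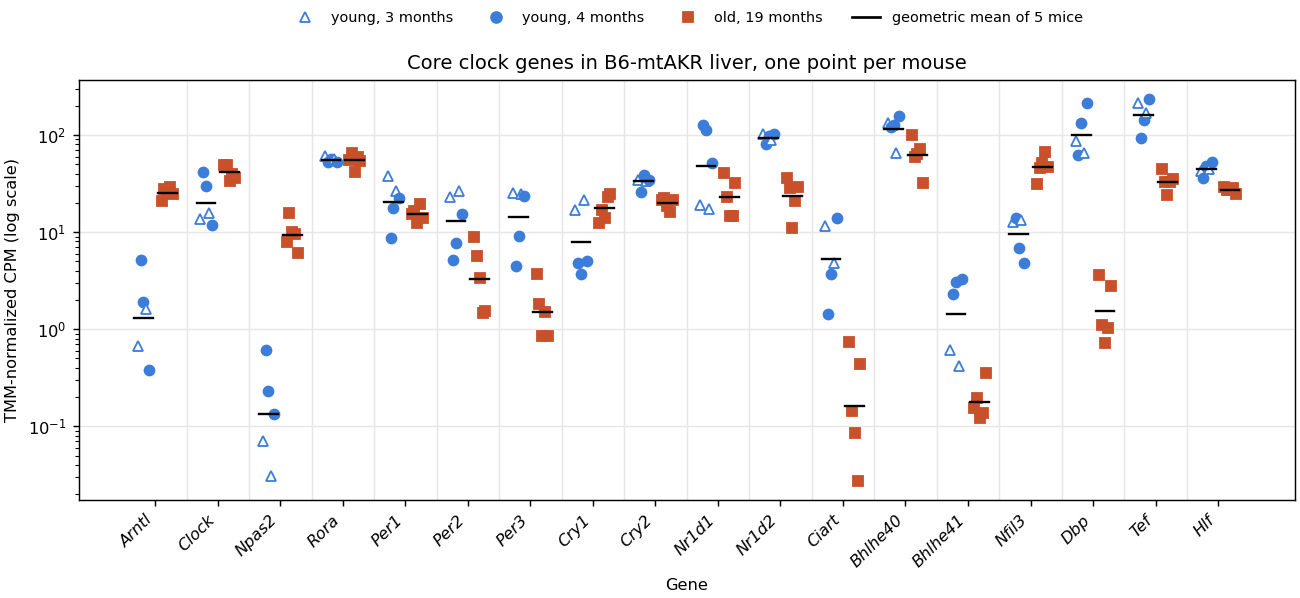
TMM-normalized CPM on a log scale for core clock genes, 1 point per mouse: open triangles are young mice of 3 months, filled circles young mice of 4 months and squares old mice, and each bar is the geometric mean of 5 mice. Arntl, Npas2 and Nfil3 are higher in all old mice, and Nr1d2, Per3, Ciart, Bhlhe41, Cry2, Dbp, Tef and Hlf lower in all old mice, while Nr1d1, Cry1 and Clock spread within the young group.

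Of the 31 clock-controlled liver output genes, 3 rose, 7 fell and 21 were not called. Slco1a1, a sinusoidal transporter that takes up organic anions, stood at 150.1, 185, 46.4, 98.2 and 74.2 CPM in the young mice and 0.969, 0.773, 0.690, 0.551 and 3.13 CPM in the old mice. This was the lowest log2 fold change of all genes tested, -6.51 (SE 0.62, adjusted p = 9.92e-04), and the fold on the means was 90.6. Wee1, the kinase that delays entry into mitosis, stood at 16.8, 4.10, 10.7, 11.7 and 19.4 CPM in the young mice and 2.01, 1.34, 1.52, 0.992 and 1.16 CPM in the old mice. Wee1 had a log2 fold change of -3.15 (SE 0.38, adjusted p = 0.00198). The ubiquitin protease gene Usp2 stood at 43.4, 5.02, 18.0, 30.4 and 39.0 CPM in the young mice and 1.66, 1.92, 2.45, 3.17 and 4.10 CPM in the old mice. Usp2 had a log2 fold change of -3.36 (SE 0.52, adjusted p = 0.00731). For these 3 genes no old mouse reached the level of any young mouse.

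Of the metabolic outputs, 5 of 17 fell and none rose. Besides Slco1a1 these were Gys2, Upp2, Cyp2a5 and Alas1. Gys2, the liver glycogen synthase, averaged 207 ± 83.9 CPM in the young and 63.5 ± 11.4 CPM in the old mice (SD, n = 5, log2 fold change -1.70 (SE 0.25, adjusted p = 0.00595)). Upp2, a uridine phosphorylase, averaged 716 ± 308 CPM in the young and 181 ± 29.6 CPM in the old mice (log2 fold change -1.98 (SE 0.31, adjusted p = 0.00630)). The cytochrome P450 gene Cyp2a5 averaged 1218 ± 456 CPM in the young and 408 ± 105 CPM in the old mice (log2 fold change -1.58 (SE 0.28, adjusted p = 0.0110)). Alas1, the rate-limiting enzyme of haem synthesis in the liver, averaged 270.5 ± 157 CPM in the young and 96.9 ± 19.6 CPM in the old mice (log2 fold change -1.48 (SE 0.36, adjusted p = 0.0339)). Por, which passes electrons to all microsomal P450 enzymes, was at -0.71, adjusted p = 0.0544. Nampt (-0.88, adjusted p = 0.101), Slc2a2 (-0.52, adjusted p = 0.123), Cyp2a4 (-0.81, adjusted p = 0.149), Pnpla3 (1.50, adjusted p = 0.200) and Insig2 (0.65, adjusted p = 0.216) were not called. The same held for Mthfd1l (-1.11, adjusted p = 0.374), Lpin1 (-0.48, adjusted p = 0.404), Elovl6 (-0.64, adjusted p = 0.475), Elovl3 (-0.50, adjusted p = 0.769) and Cyp7a1 (0.05, adjusted p = 0.969). Nampt was split within the young group like Nr1d1 but in the opposite sense, at 148, 49.1, 56.3, 160.3 and 104 CPM in the young mice and 53.7, 57.4, 53.5, 54.6 and 62.4 CPM in the old mice.

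Among the other outputs, Cdkn1a, which encodes the cell cycle inhibitor p21, stood at 1.89, 4.28, 2.00, 2.25 and 2.14 CPM in the young mice and 7.35, 11.0, 26.4, 21.9 and 13.5 CPM in the old mice. It rose in every old mouse, by 2.67 (SE 0.37, adjusted p = 0.00499). Mreg rose by 1.22 (SE 0.19, adjusted p = 0.00611). Noct, the deadenylase nocturnin, rose by 1.07 (SE 0.26, adjusted p = 0.0339), with overlapping groups. The values of Rgs16, a regulator of G protein signalling, did not overlap (135 ± 55.2 CPM in the young and 32.1 ± 22.8 CPM in the old mice), but its log2 fold change of -2.07 was not called (adjusted p = 0.0648). Tspan4 (-1.13, adjusted p = 0.0656), Nudt7 (-1.06, adjusted p = 0.0656), Avpr1a (0.76, adjusted p = 0.0935) and Lonrf3 (0.95, adjusted p = 0.134) were not called. Neither were Tsku (-1.33, adjusted p = 0.355), Lgals4 (-0.72, adjusted p = 0.432), Ces2a (0.26, adjusted p = 0.438) and Fmo5 (0.012, adjusted p = 0.987). Leaving out a single mouse ended the call of Alas1 (any mouse except young 2 and young 3, adjusted p up to 0.0852) and Noct (any mouse except young 4, old 3 and old 4, adjusted p up to 0.0744).

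Outside the clock lists, 247 called genes differed at least 2-fold and averaged at least 1 CPM, and the 12 protein-coding ones with the smallest p in each direction are described. These lists do not hold every gene with a daily rhythm, and whether the genes below have one was not tested. G6pc (ENSMUSG00000078650, chromosome 11 from 101367561 to 101377903), the catalytic subunit of glucose-6-phosphatase and the last step of glucose release from the liver, stood at 130.5, 116, 61.2, 141 and 94.3 CPM in the young mice and 529, 483, 544, 614 and 461 CPM in the old mice. It rose 4.84-fold on the means, with a log2 fold change of 2.28 (SE 0.21, adjusted p = 7.62e-04). Tubb2a, a beta tubulin, stood at 28.4, 58.2, 38.9, 22.1 and 23.2 CPM in the young mice and 207, 195, 177, 168 and 159.5 CPM in the old mice. Tubb2a had a log2 fold change of 2.41 (SE 0.25, adjusted p = 9.92e-04). Celsr1, a cadherin of planar cell polarity, stood at 11.8, 13.3, 7.39, 14.3 and 12.3 CPM in the young mice and 31.4, 30.7, 39.1, 31.5 and 29.1 CPM in the old mice. Celsr1 had a log2 fold change of 1.46 (SE 0.16, adjusted p = 0.00124). In all 3 genes every old mouse was above every young mouse.

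Further genes rose with no overlap between the groups. Hapln4, which links hyaluronan to proteoglycans, averaged 6.22 ± 1.24 CPM in the young and 15.6 ± 2.15 CPM in the old mice (log2 fold change 1.33 (SE 0.15, adjusted p = 0.00134)). Gfod1 averaged 2.20 ± 0.181 CPM in the young and 5.38 ± 1.05 CPM in the old mice (log2 fold change 1.29 (SE 0.15, adjusted p = 0.00137)). The adhesion molecule gene Nectin1 averaged 20.9 ± 4.22 CPM in the young and 48.5 ± 4.93 CPM in the old mice (log2 fold change 1.22 (SE 0.14, adjusted p = 0.00137)). The ubiquitin ligase gene Rnf144a averaged 4.95 ± 1.18 CPM in the young and 14.2 ± 2.23 CPM in the old mice (log2 fold change 1.52 (SE 0.18, adjusted p = 0.00137)). The cochaperone gene Bag3 averaged 15.9 ± 2.48 CPM in the young and 35.7 ± 6.32 CPM in the old mice (log2 fold change 1.17 (SE 0.15, adjusted p = 0.00198)). Csprs also rose (log2 fold change 1.52 (SE 0.19, adjusted p = 0.00192)), but it lies on an unplaced scaffold in a region of repeated copies, so its reads may be shared. The DNA methyltransferase gene Dnmt3b stood at 0.581, 1.07, 0.602, 0.796 and 0.548 CPM in the young mice and 3.06, 3.81, 2.53, 3.26 and 1.59 CPM in the old mice. Dnmt3b had a log2 fold change of 1.98 (SE 0.27, adjusted p = 0.00357). Fermt1, which encodes the integrin adaptor kindlin-1, stood at 0.202, 0.610, 0.369, 0.337 and 0.450 CPM in the young mice and 2.46, 1.65, 1.71, 1.16 and 1.93 CPM in the old mice. Fermt1 had a log2 fold change of 2.17 (SE 0.30, adjusted p = 0.00375). Sox9, a transcription factor of bile duct cells, stood at 0.890, 1.29, 1.06, 0.811 and 0.974 CPM in the young mice and 1.89, 2.46, 2.88, 2.89 and 3.43 CPM in the old mice. Sox9 had a log2 fold change of 1.43 (SE 0.20, adjusted p = 0.00403). The age groups were apart in each.

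Cyp2c54 (ENSMUSG00000067225, chromosome 19 from 40037940 to 40073827), a P450 enzyme of drug and fatty acid metabolism, had the smallest p among the genes that fell under these limits and stood at 221, 251, 275, 177 and 139 CPM in the young mice and 62.1, 63.3, 54.4, 56.4 and 70.2 CPM in the old mice. Cyp2c54 had a log2 fold change of -1.80 (SE 0.18, adjusted p = 9.92e-04). Its relatives Cyp2c37 and Cyp2c50 were not called, and how reads were split among these genes was not tested. Pcsk4, a proprotein convertase, stood at 25.0, 10.9, 14.7, 21.0 and 26.8 CPM in the young mice and 2.92, 3.67, 1.69, 1.82 and 1.65 CPM in the old mice. Pcsk4 had a log2 fold change of -3.06 (SE 0.31, adjusted p = 9.92e-04). Egfr, the receptor of epidermal growth factor, stood at 174, 308, 147, 137 and 169 CPM in the young mice and 26.4, 29.6, 47.7, 56.8 and 48.6 CPM in the old mice. Egfr had a log2 fold change of -2.16 (SE 0.27, adjusted p = 0.00246), and fell 4.47-fold on the means. All old mice lay below all young mice for Cyp2c54, Pcsk4 and Egfr. Hsd3b5, a steroid dehydrogenase known from male liver, was at low levels throughout, 3.50, 11.8, 1.72, 2.42 and 0.694 CPM in the young mice and 0.124, 0.0413, 0.0616, 0.0688 and 0.0544 CPM in the old mice. Its log2 fold change of -5.80 (SE 0.81, adjusted p = 0.00553) rested on as few as 4 counts in an old mouse.

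Other genes of this group fell with no overlap. Sel1l3 averaged 9.90 ± 1.21 CPM in the young and 4.15 ± 0.610 CPM in the old mice (log2 fold change -1.25 (SE 0.14, adjusted p = 9.92e-04)). Enpp2, the gene of the secreted enzyme autotaxin, averaged 63.1 ± 5.57 CPM in the young and 30.8 ± 4.49 CPM in the old mice (log2 fold change -1.03 (SE 0.12, adjusted p = 0.00124)). Rapgef4, a cAMP-activated exchange factor, averaged 203 ± 45.3 CPM in the young and 72.1 ± 12.9 CPM in the old mice (log2 fold change -1.50 (SE 0.18, adjusted p = 0.00137)). Interleukin receptors were among the genes of this group, all of which were chosen for lower levels in old mice. The interleukin 15 receptor subunit Il15ra averaged 22.0 ± 3.96 CPM in the young and 8.81 ± 1.70 CPM in the old mice (log2 fold change -1.32 (SE 0.17, adjusted p = 0.00232)). The interleukin 1 receptor Il1r1 averaged 21.6 ± 4.73 CPM in the young and 9.90 ± 1.21 CPM in the old mice (log2 fold change -1.12 (SE 0.16, adjusted p = 0.00489)). C8a, a component of the membrane attack complex of complement made by hepatocytes, averaged 242 ± 52.5 CPM in the young and 75.5 ± 23.8 CPM in the old mice (log2 fold change -1.68 (SE 0.22, adjusted p = 0.00262)). The phosphodiesterase Gpcpd1 averaged 113 ± 35.5 CPM in the young and 32.7 ± 9.13 CPM in the old mice (log2 fold change -1.79 (SE 0.25, adjusted p = 0.00462)). Timd4, a receptor of resident Kupffer cells, belongs to this group and is described with its cell type.

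**Figure D4:**
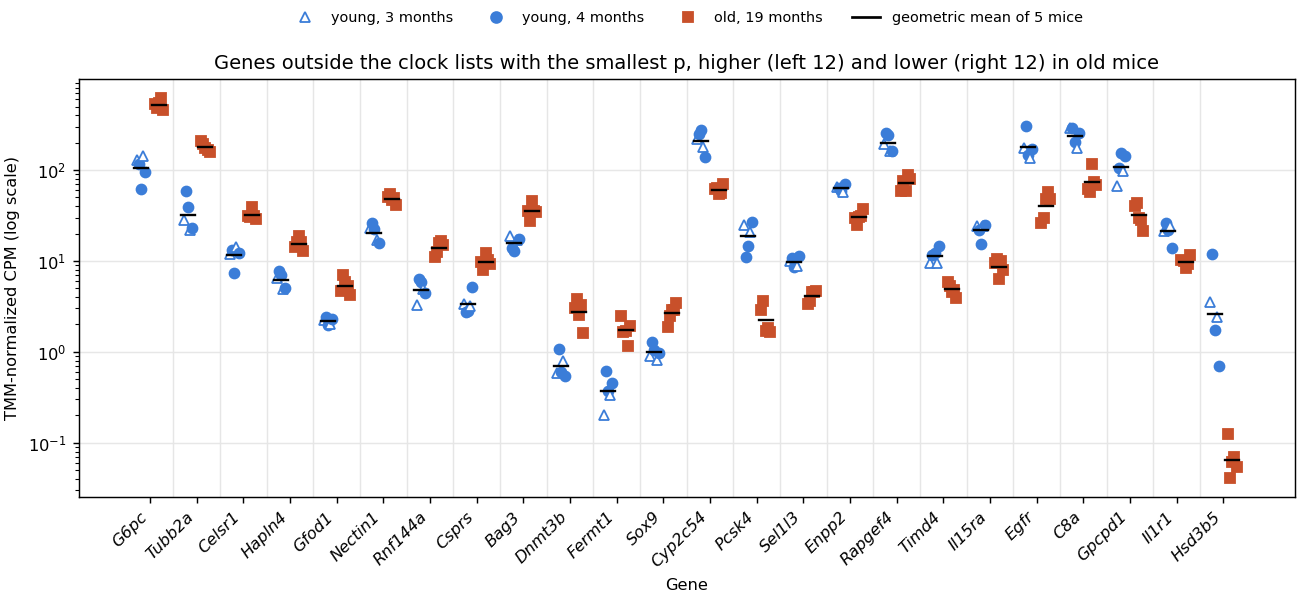
TMM-normalized CPM on a log scale for the 24 protein-coding genes outside the clock lists with the smallest p, 12 higher and 12 lower in old mice, 1 point per mouse: open triangles are young mice of 3 months, filled circles young mice of 4 months and squares old mice, and each bar is the geometric mean of 5 mice. The age groups do not overlap in any of the 24 genes, which were chosen for a small p.

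The largest log2 fold changes under the same limits fell on genes with wide spread. Gpnmb, a gene of lipid-laden macrophages, stood at 0.0830, 0.0842, 0.123, 0.107 and 0.243 CPM in the young mice and 0.330, 0.495, 2.85, 0.537 and 15.2 CPM in the old mice. Gpnmb had a log2 fold change of 4.90 (SE 1.18, adjusted p = 0.0361), and old 5 and old 3 held most of its old level. Sult2a3, a sulfotransferase, stood at 2.43, 0.389, 14.9, 5.14 and 0.657 CPM in the young mice and 151, 118, 62.4, 93.2 and 5.78 CPM in the old mice. Sult2a3 had a log2 fold change of 4.20 (SE 1.06, adjusted p = 0.0419). Adcy1, an adenylate cyclase, stood at 0.249, 0.431, 0.147, 0.352 and 0.608 CPM in the young mice and 7.90, 8.04, 9.82, 4.13 and 0.694 CPM in the old mice. Adcy1 had a log2 fold change of 4.09 (SE 0.64, adjusted p = 0.00731), and old 5 was close to the young mice. Sult1e1, the oestrogen sulfotransferase, stood at 0.451, 0.0316, 0.0983, 0.398 and 0.0608 CPM in the young mice and 2.95, 2.84, 0.333, 0.441 and 8.55 CPM in the old mice. Sult1e1 had a log2 fold change of 3.88 (SE 0.99, adjusted p = 0.0431), with old 3 and old 4 inside the range of the young mice. Toward lower levels, besides Hsd3b5 and Pcsk4, the sulfotransferase Sult3a1 stood at 180.0, 210.5, 118, 163 and 49.7 CPM in the young mice and 33.8, 36.6, 16.0, 15.8 and 1.36 CPM in the old mice. Sult3a1 had a log2 fold change of -2.80 (SE 0.69, adjusted p = 0.0391). Serpina1e, one of a cluster of near-identical alpha-1 antitrypsin genes, stood at 848, 250.0, 78.2, 175 and 368 CPM in the young mice and 23.3, 29.5, 76.8, 70.9 and 79.2 CPM in the old mice. Serpina1e had a log2 fold change of -2.62 (SE 0.61, adjusted p = 0.0331), with overlap in young 3. Estimated counts of such gene families depend on how shared reads are split, so these values are uncertain. Calls lost when 1 mouse was left out were those of Gpnmb (any mouse except old 1, old 2, old 4 and old 5, adjusted p up to 0.0892), Sult2a3 (any mouse except young 3 and old 5, adjusted p up to 0.0999), Sult1e1 (any mouse except old 3 and old 4, adjusted p up to 0.0917), Sult3a1 (any mouse except young 5 and old 5, adjusted p up to 0.0930) and Serpina1e (any mouse except young 2, young 3, young 4 and old 5, adjusted p up to 0.0781).

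The non-coding genes with the smallest p under the same limits were pseudogenes. Gm3788 rose (0.756 ± 0.328 CPM in the young and 2.72 ± 0.516 CPM in the old mice, log2 fold change 1.84 (SE 0.27, adjusted p = 0.00568)). Gm7609 rose too (2.10 ± 0.489 CPM in the young and 4.27 ± 1.00 CPM in the old mice, log2 fold change 1.02 (SE 0.21, adjusted p = 0.0182)). Zbed4-ps1 was the third (0.280 ± 0.242 CPM in the young and 1.95 ± 1.16 CPM in the old mice, log2 fold change 2.79 (SE 0.68, adjusted p = 0.0370)). Gm21049 fell (1.73 ± 0.504 CPM in the young and 0.593 ± 0.269 CPM in the old mice, log2 fold change -1.53 (SE 0.33, adjusted p = 0.0231)). Reads of pseudogenes can come from their parent genes, so these too are uncertain. The calls that depended on single mice were those of Zbed4-ps1 (any mouse except young 1, young 2 and old 3, adjusted p up to 0.0826). The smallest p of all genes belonged to Gdf3, which averaged under 1 CPM and was named after its values were seen. This TGF beta family member stood at 0.0474, 0.0526, 0.0614, 0.0306 and 0.0608 CPM in the young mice and 1.03, 1.06, 1.64, 0.757 and 1.13 CPM in the old mice. Gdf3 had a log2 fold change of 4.42 (SE 0.30, adjusted p = 6.65e-05).

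Gene lists written for this tissue were read against the background of 3.69% higher and 3.00% lower over all genes. Their medians are set beside the median log2 fold change of all genes tested, -0.0036. Among 13 fasting genes, 1 rose (G6pc) and 1 fell. The latter was Cpt1a, which brings long-chain fatty acids into mitochondria, at -0.74 (SE 0.18, adjusted p = 0.0372). Igfbp1, an insulin-suppressed binding protein of insulin-like growth factors, stood at 27.6, 24.5, 23.6, 139.7 and 18.2 CPM in the young mice and 99.4, 161, 214, 269 and 274 CPM in the old mice. The value of young 4 lay inside the old range and Igfbp1 was not called, at 2.12 (SE 0.59, adjusted p = 0.0562). No feeding gene was called out of 10. The smallest p values were those of Scd1 (0.58, adjusted p = 0.226), Acaca (-0.41, adjusted p = 0.247) and Thrsp (-1.50, adjusted p = 0.273).

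Of 19 enzymes of cholesterol synthesis, 2 rose and none fell, with a positive log2 fold change in 18 and a median of 0.44. Ebp stood at 183, 215, 205, 146 and 181 CPM in the young mice and 263, 238, 364, 328 and 297 CPM in the old mice. Ebp had a log2 fold change of 0.68 (SE 0.15, adjusted p = 0.0231). Dhcr7, the last enzyme of the pathway, rose by 0.84 (SE 0.22, adjusted p = 0.0427), and Mvk was at 0.71, adjusted p = 0.0840. Srebf2, the master regulator of the pathway, rose by 0.63 (SE 0.17, adjusted p = 0.0435), while Stard4 (-0.48, adjusted p = 0.133) was not called. Of 7 bile acid synthesis genes none was called, the lowest in p being Cyp8b1 (1.12, adjusted p = 0.0645), Slc27a5 (0.36, adjusted p = 0.181) and Baat (0.21, adjusted p = 0.255). Of 12 transport and control genes, the basolateral export pump Abcc4 rose (0.90 (SE 0.17, adjusted p = 0.0125)) and the sterol export subunit Abcg5 fell (-0.82 (SE 0.22, adjusted p = 0.0488)). The bile acid receptor Nr1h4 was at -0.44, adjusted p = 0.111. Leaving out a single mouse ended the call of Cpt1a (any mouse except old 4, adjusted p up to 0.0915), Ebp (young 1, young 5 or old 3, adjusted p up to 0.0622), Dhcr7 (any mouse except young 2 and old 5, adjusted p up to 0.101), Srebf2 (any mouse except young 2, young 3 and old 5, adjusted p up to 0.110) and Abcg5 (any mouse except old 5, adjusted p up to 0.114).

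Drug metabolism genes were called in both directions. Of 31 P450 genes, 3 rose and 3 fell. Cyp2b10, the classic target of the receptor CAR, stood at 7.85, 8.14, 10.9, 6.55 and 19.9 CPM in the young mice and 29.2, 35.5, 46.9, 29.6 and 54.8 CPM in the old mice. Cyp2b10 had a log2 fold change of 1.88 (SE 0.31, adjusted p = 0.00807). Cyp2c29 (0.86 (SE 0.21, adjusted p = 0.0360)) and Cyp17a1 (1.08 (SE 0.25, adjusted p = 0.0293)) also rose. Besides Cyp2c54, Cyp2d9 fell (-2.24 (SE 0.40, adjusted p = 0.0125)), as did Cyp2e1. This ethanol-inducible P450 enzyme of hepatocytes around the central vein stood at 5887, 7671, 7705, 6272 and 5169 CPM in the young mice and 3056, 3393, 2960.1, 4578 and 3054 CPM in the old mice. Cyp2e1 had a log2 fold change of -0.94 (SE 0.18, adjusted p = 0.0154). Of 27 conjugation genes, Sult1e1 rose and Gstt2 (-1.02 (SE 0.15, adjusted p = 0.00606)), Fmo2 (-1.01 (SE 0.20, adjusted p = 0.0158)) and Sult3a1 fell. Calls lost when 1 mouse was left out were those of Cyp2c29 (any mouse except young 2, young 3, old 1 and old 5, adjusted p up to 0.0895) and Cyp17a1 (young 1, young 4, young 5, old 1 or old 2, adjusted p up to 0.0695).

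Of 33 amino acid catabolism genes 5 rose and none fell, with a positive log2 fold change in 27 and a median of 0.31. Got1, the cytosolic aspartate transaminase, stood at 122, 129, 131, 129.6 and 144 CPM in the young mice and 219, 216, 256, 339 and 413 CPM in the old mice. Got1 had a log2 fold change of 1.14 (SE 0.18, adjusted p = 0.00672). Gldc, the glycine cleavage enzyme, stood at 57.3, 139, 127, 61.7 and 53.6 CPM in the young mice and 258, 258, 253, 296 and 395 CPM in the old mice. Gldc had a log2 fold change of 1.73 (SE 0.29, adjusted p = 0.00807), and the 3-month-old young mice and young 5 were lowest. The transsulfuration enzymes Cbs (1.19 (SE 0.29, adjusted p = 0.0329)) and Cth (1.15 (SE 0.29, adjusted p = 0.0403)) and the histidine-degrading Uroc1 (0.57 (SE 0.15, adjusted p = 0.0408)) also rose. Of 7 urea cycle genes, the mitochondrial ornithine carrier Slc25a15 rose (219 ± 30.3 CPM in the young and 402 ± 79.5 CPM in the old mice, log2 fold change 0.88 (SE 0.16, adjusted p = 0.0109)), and Nags (0.44, adjusted p = 0.0681) and Asl (0.69, adjusted p = 0.0915) were not called. Summed over the 40 genes of both lists, the level was 22079.5 to 30089 CPM in the young and 29733 to 48103 CPM in the old mice. The calls that depended on single mice were those of Cbs (any mouse except young 2, young 3 and old 1, adjusted p up to 0.0772), Cth (any mouse except young 2, young 3, old 4 and old 5, adjusted p up to 0.0888) and Uroc1 (any mouse except young 2 and young 3, adjusted p up to 0.0981).

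Few mitochondrial genes were called. None of the 76 nuclear respiratory chain genes was called, at a median log2 fold change of -0.028 and a range of -0.57 to 0.41. The smallest p values were those of Ndufv3 (0.41, adjusted p = 0.156), Ndufs4 (-0.43, adjusted p = 0.177) and Ndufb3 (-0.24, adjusted p = 0.206) in complex I. In complexes II to IV they were those of Cox7a2 (-0.36, adjusted p = 0.324), Cycs (-0.35, adjusted p = 0.364) and Cox5b (0.27, adjusted p = 0.387), and in complex V those of Atp5f1 (-0.32, adjusted p = 0.312), Atp5d (0.26, adjusted p = 0.395) and Atp5h (0.23, adjusted p = 0.433). None of the 13 protein genes of the mtDNA was called either, and their sum spread widely within each group, from 73375 to 168785 CPM in young and 66887 to 188212 CPM in old mice. The lowest in p were mt-Nd3 (-0.53, adjusted p = 0.547), mt-Nd4 (0.24, adjusted p = 0.643), mt-Nd4l (0.18, adjusted p = 0.701), mt-Atp8 (0.27, adjusted p = 0.610), mt-Co1 (-0.15, adjusted p = 0.804) and mt-Cytb (0.11, adjusted p = 0.872). Of 79 mitochondrial ribosome genes, Mrpl4 rose (0.45 (SE 0.10, adjusted p = 0.0231)). Mrpl9 (-0.30, adjusted p = 0.0768), Mrpl54 (-0.41, adjusted p = 0.128), Mrps31 (0.27, adjusted p = 0.114), Mrps28 (-0.24, adjusted p = 0.119) and Mrps18b (0.33, adjusted p = 0.133) were not called. Leaving out a single mouse ended the call of Mrpl4 (old 3, adjusted p = 0.0585).

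Chaperones of the endoplasmic reticulum fold secreted proteins, and cells raise them when unfolded proteins pile up there. Of 19 chaperone and folding genes 7 rose and none fell, at a median of 0.39. The sum of the list did not overlap between the groups, at 3268 to 4803 CPM in young and 4957 to 5700.5 CPM in old mice. Hspa5, which encodes the master chaperone BiP, stood at 472, 478, 313, 319 and 318 CPM in the young mice and 859, 730.3, 723, 617 and 659 CPM in the old mice. Hspa5 had a log2 fold change of 0.92 (SE 0.17, adjusted p = 0.0122). Pdia4 stood at 88.3, 144, 124, 64.0 and 89.5 CPM in the young mice and 199, 199, 219.6, 203 and 159.6 CPM in the old mice. Pdia4 had a log2 fold change of 0.94 (SE 0.20, adjusted p = 0.0204). Creld2 stood at 20.9, 20.1, 11.3, 15.8 and 10.8 CPM in the young mice and 38.2, 32.4, 24.2, 27.8 and 25.7 CPM in the old mice. Creld2 had a log2 fold change of 0.91 (SE 0.20, adjusted p = 0.0255). Hyou1 (1.09 (SE 0.25, adjusted p = 0.0267)), Dnajb11 (0.54 (SE 0.13, adjusted p = 0.0304)), Manf (0.85 (SE 0.21, adjusted p = 0.0382)) and Calr (0.71 (SE 0.19, adjusted p = 0.0465)) rose too. None of the 9 control genes of this response was called. Of these, Trib3 stood at 5.07, 16.7, 27.9, 4.03 and 8.23 CPM in the young mice and 3.01, 3.01, 2.18, 3.10 and 6.38 CPM in the old mice, with -1.81 (SE 0.53, adjusted p = 0.0664), and Xbp1 (-0.42, adjusted p = 0.0945) and Ern1 (-0.38, adjusted p = 0.115) also had negative values. Of the cytosolic heat shock genes none of 10 was called, the lowest in p being Fkbp4 (0.49, adjusted p = 0.0753), Hsp90aa1 (0.54, adjusted p = 0.174) and Hspa8 (0.29, adjusted p = 0.263). The cold-inducible Rbm3 (-0.65, adjusted p = 0.318) and Cirbp (0.16, adjusted p = 0.583) were not called. Calls lost when 1 mouse was left out were those of Pdia4 (young 1, young 5 or old 3, adjusted p up to 0.0557), Creld2 (young 4 or old 2, adjusted p up to 0.0532), Hyou1 (young 3, young 4, old 1, old 2 or old 3, adjusted p up to 0.0579), Dnajb11 (any mouse except young 2, old 1 and old 5, adjusted p up to 0.0751), Manf (any mouse except young 1, young 2 and old 4, adjusted p up to 0.0777) and Calr (any mouse except young 2, adjusted p up to 0.120).

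**Figure D5:**
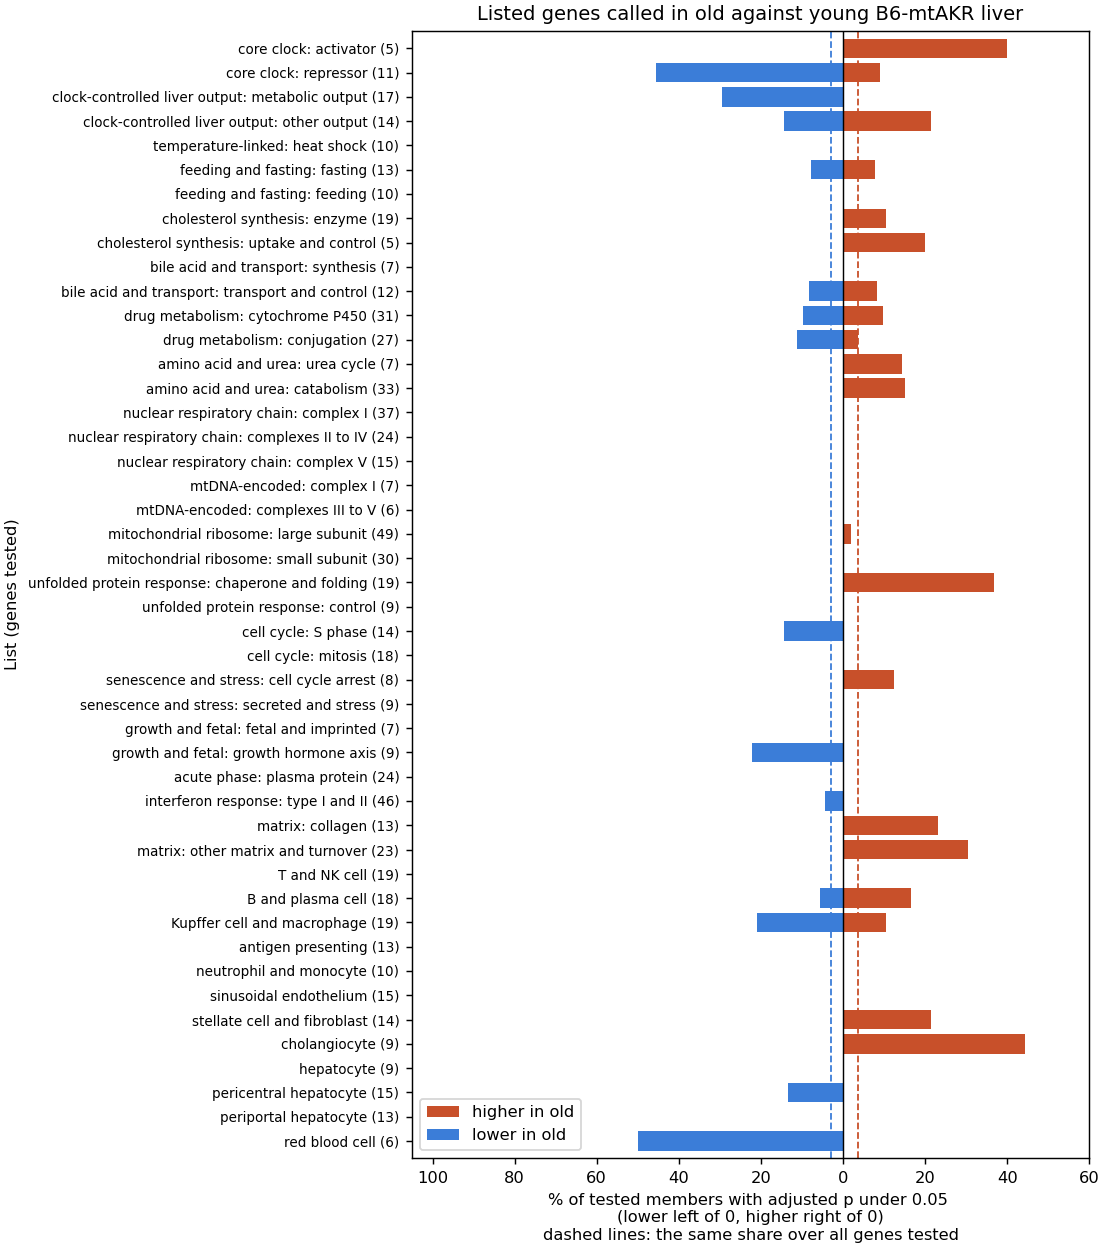
Horizontal bars give the percentage of tested members of each list that were called, for lists with at least 5 tested genes, higher in old mice to the right and lower to the left of 0, with the number of tested genes in brackets. The dashed lines mark 3.69% higher and 3.00% lower over all 15408 genes. The core clock, endoplasmic reticulum chaperones, matrix genes and cholangiocyte markers are among the lists that exceed the dashed lines. Others that do include clock-controlled outputs, amino acid catabolism and markers of red blood cells, Kupffer cells, stellate cells and B and plasma cells. The respiratory chain lists are at 0.

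Of 18 B and plasma cell markers tested, 3 rose and 1 fell, and the summed level was 27.6 to 52.6 CPM in young and 79.2 to 220.5 CPM in old mice. Of the 18, 7 had a positive log2 fold change, at a median of -0.45, so the higher sum does not describe most of the list. Ighm, the IgM heavy chain, stood at 12.0, 6.64, 13.8, 8.10 and 12.8 CPM in the young mice and 42.1, 91.4, 73.1, 57.5 and 23.3 CPM in the old mice. Ighm had a log2 fold change of 2.43 (SE 0.35, adjusted p = 0.00598). Igkc, the kappa light chain, stood at 5.09, 4.50, 9.02, 4.16 and 9.93 CPM in the young mice and 15.3, 32.5, 35.9, 30.7 and 102 CPM in the old mice. Igkc had a log2 fold change of 2.73 (SE 0.49, adjusted p = 0.0132). Jchain, which joins secreted IgM and IgA, stood at 2.03, 1.38, 3.15, 1.55 and 2.57 CPM in the young mice and 4.25, 9.86, 7.91, 7.37 and 23.4 CPM in the old mice. Jchain had a log2 fold change of 2.30 (SE 0.43, adjusted p = 0.0143). Those that rose are made in bulk by plasma cells. Ighd, the IgD chain of naive B cells, fell (1.93 ± 0.564 CPM in the young and 0.834 ± 0.203 CPM in the old mice, log2 fold change -1.20 (SE 0.24, adjusted p = 0.0180)). The B cell surface markers Cd79a (-0.46, adjusted p = 0.271) and Ms4a1 (-0.70, adjusted p = 0.0988) were not called. Old 5 was highest in Igkc and Jchain. Ighg2c, the IgG2c chain, reached 46.6 CPM in old 5 but at most 3.94 CPM in the other old mice (4.21, adjusted p = 0.0616).

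Kupffer cell and macrophage markers were called in both directions, 2 higher and 4 lower of 19. Those that fell mark resident Kupffer cells. Timd4 stood at 9.41, 11.8, 12.3, 9.46 and 14.5 CPM in the young mice and 5.84, 5.33, 4.54, 4.81 and 3.96 CPM in the old mice, and the fall was -1.23 (SE 0.15, adjusted p = 0.00192). The scavenger receptor Cd163 fell (17.9 ± 4.43 CPM in the young and 6.09 ± 3.23 CPM in the old mice, log2 fold change -1.55 (SE 0.38, adjusted p = 0.0376)). Marco, another scavenger receptor, fell (33.0 ± 29.3 CPM in the young and 8.09 ± 3.24 CPM in the old mice, log2 fold change -2.03 (SE 0.52, adjusted p = 0.0441)) with overlap between the groups. The secreted Cd5l fell as well (179 ± 25.0 CPM in the young and 118 ± 20.2 CPM in the old mice, log2 fold change -0.60 (SE 0.15, adjusted p = 0.0335)). Clec4f, another Kupffer cell gene, was not called (-0.25, adjusted p = 0.352). The summed level of the list overlapped between the groups, at 902 to 1218 CPM in young and 805 to 985 CPM in old mice. Gpnmb rose, as did Spp1, the gene of osteopontin, at 32.2, 33.7, 34.6, 41.7 and 39.6 CPM in the young mice and 52.7, 66.6, 57.9, 67.5 and 74.4 CPM in the old mice. Spp1 had a log2 fold change of 0.81 (SE 0.12, adjusted p = 0.00517). Spp1 is also made by bile duct cells. The calls that depended on single mice were those of Cd163 (any mouse except old 1 and old 3, adjusted p up to 0.0759), Marco (any mouse except young 4 and old 5, adjusted p up to 0.108) and Cd5l (any mouse except young 2, young 4, old 1 and old 3, adjusted p up to 0.0812).

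None of 19 T and NK cell markers was called, the lowest in p being Klrk1 (-0.68, adjusted p = 0.0690), Tox (-0.48, adjusted p = 0.0895) and Lck (-0.60, adjusted p = 0.128). Their sum was 20.8 to 29.2 CPM in young and 17.5 to 24.6 CPM in old mice. Of the antigen presenting list none of 13 was called (Itgax 1.03, adjusted p = 0.0871, Ccr7 -0.77, adjusted p = 0.110, H2-Ab1 0.46, adjusted p = 0.233). Of the neutrophil and monocyte list none of 10 was called (Chil3 1.90, adjusted p = 0.172, Cxcr2 0.40, adjusted p = 0.523, Retnlg 0.62, adjusted p = 0.537). Of 46 interferon response genes, Irf7 (-0.71 (SE 0.17, adjusted p = 0.0295)) and Gbp4 (-0.82 (SE 0.22, adjusted p = 0.0446)) fell, a share near the background, and Gbp3 was at -0.79, adjusted p = 0.0649. None of 24 acute phase proteins was called, with Itih4 (0.67, adjusted p = 0.0881), Hamp (0.76, adjusted p = 0.0993) and Hp (0.64, adjusted p = 0.123) lowest in p. Red blood cell genes fell in 3 of 6, namely Alas2 (-0.72 (SE 0.13, adjusted p = 0.0111)), Hbb-bt (-1.40 (SE 0.27, adjusted p = 0.0149)) and Hbb-bs. Hbb-bs stood at 498, 306, 519, 768 and 251 CPM in the young mice and 165, 168, 156, 249 and 134 CPM in the old mice. Hbb-bs had a log2 fold change of -1.43 (SE 0.29, adjusted p = 0.0171). Globin RNA comes from blood left in the tissue, the globin genes are near-identical copies, and the part of blood content in other results was not tested. Leaving out a single mouse ended the call of Irf7 (young 1, young 5, old 2 or old 4, adjusted p up to 0.0736) and Gbp4 (any mouse except young 2, old 1 and old 2, adjusted p up to 0.104).

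Of 9 tested markers of cholangiocytes, the cells that line bile ducts, 4 rose and all 9 had a positive log2 fold change. Their sum, most of it Spp1, did not overlap, at 43.0 to 54.3 CPM in young and 69.4 to 92.1 CPM in old mice. Spp1 is also on the macrophage list. Besides Sox9 and Spp1, the markers that rose were Epcam and Cldn7. Epcam stood at 0.890, 0.873, 1.11, 1.04 and 1.01 CPM in the young mice and 1.62, 1.87, 2.06, 2.44 and 3.24 CPM in the old mice. It had a log2 fold change of 1.19 (SE 0.20, adjusted p = 0.00807). Cldn7 averaged 0.328 ± 0.0538 CPM in the young and 0.699 ± 0.203 CPM in the old mice (log2 fold change 1.09 (SE 0.26, adjusted p = 0.0308)). Krt19 had the smallest p of the genes that missed the threshold, at 1.21, adjusted p = 0.0502, while Krt7, which marks the same ducts, was at 0.034, adjusted p = 0.975. Of 13 collagen genes 3 rose and all 13 had a positive log2 fold change, at a median of 0.56. The type IV collagens Col4a2 (0.52 (SE 0.12, adjusted p = 0.0293)) and Col4a1 (0.56 (SE 0.14, adjusted p = 0.0360)), which build basement membrane, and Col5a1 (0.55 (SE 0.13, adjusted p = 0.0339)) were the called ones. Of 23 other matrix genes 7 rose and none fell. The laminin chain Lamb1 stood at 5.21, 5.08, 5.38, 5.94 and 5.82 CPM in the young mice and 8.54, 8.45, 10.2, 9.50 and 7.99 CPM in the old mice. Lamb1 had a log2 fold change of 0.70 (SE 0.11, adjusted p = 0.00609). The membrane protease Mmp14 (26.1 ± 6.10 CPM in the young and 46.8 ± 4.47 CPM in the old mice, log2 fold change 0.84 (SE 0.15, adjusted p = 0.0110)) followed. The elastin cross-linker Loxl1 averaged 0.969 ± 0.297 CPM in the young and 2.50 ± 0.658 CPM in the old mice (log2 fold change 1.37 (SE 0.26, adjusted p = 0.0140)). The others were Eln (0.92 (SE 0.21, adjusted p = 0.0261)), Mmp2 (1.09 (SE 0.26, adjusted p = 0.0318)), Thbs1 (0.95 (SE 0.24, adjusted p = 0.0408)) and Dcn (0.47 (SE 0.12, adjusted p = 0.0429)).

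Stellate cell and fibroblast markers, from the cells that make most liver matrix, rose in 3 of 14, namely Pdgfrb, Pdgfra and Gsn (1.09 (SE 0.29, adjusted p = 0.0488)). The growth factor receptor Pdgfrb averaged 5.19 ± 0.728 CPM in the young and 8.82 ± 0.763 CPM in the old mice (log2 fold change 0.77 (SE 0.12, adjusted p = 0.00728)). Pdgfra, its relative, averaged 3.81 ± 0.521 CPM in the young and 5.73 ± 0.529 CPM in the old mice (log2 fold change 0.59 (SE 0.13, adjusted p = 0.0229)). The summed level of these markers overlapped between the groups, at 456 to 736 CPM in young and 556 to 748 CPM in old mice. Of 15 sinusoidal endothelium markers none was called (Clec1b -0.37, adjusted p = 0.208, Wnt2 -0.52, adjusted p = 0.392, Clec4g -0.20, adjusted p = 0.544). None of 9 hepatocyte markers was called (Ttr 0.38, adjusted p = 0.327, F2 0.26, adjusted p = 0.355, Alb 0.38, adjusted p = 0.374). Of 15 genes of hepatocytes around the central vein, Cyp2e1 and the glutamate transporter Slc1a2 (-0.94 (SE 0.21, adjusted p = 0.0262)) fell and Znrf3 was at -0.46, adjusted p = 0.0755. Of the 15, 1 had a positive log2 fold change, at a median of -0.36. Their sum, most of it Cyp2e1, was 6979 to 11419.6 CPM in young and 4537 to 6739.6 CPM in old mice, with no overlap. Of 13 genes of hepatocytes around the portal vein none was called, although the groups did not overlap for Ctsc (0.67, adjusted p = 0.0630) and Gls2 (0.64, adjusted p = 0.0931), and Hal was at 1.07, adjusted p = 0.0825. Of the 13, 12 had a positive log2 fold change, at a median of 0.67. The sum was 7873 to 10194 CPM in young and 10538 to 19559 CPM in old mice, again with no overlap. Hal, Sds, Gls2, Ass1 and Cps1 of this list are also on the amino acid and urea cycle lists, so those sums are not independent. A sum follows its most abundant members. In these lists and the matrix genes, leaving out a single mouse ended the call of Cldn7 (young 1, young 3, young 5, old 3 or old 4, adjusted p up to 0.0766), Col4a2 (young 1, young 4, old 3 or old 4, adjusted p up to 0.0759), Col4a1 (any mouse except young 2, young 5 and old 5, adjusted p up to 0.0911), Col5a1 (any mouse except young 3 and old 5, adjusted p up to 0.0736), Eln (young 1, young 5, old 2 or old 3, adjusted p up to 0.0627), Mmp2 (any mouse except young 2, young 5, old 1 and old 5, adjusted p up to 0.0783), Thbs1 (any mouse except old 4 and old 5, adjusted p up to 0.0925), Dcn (any mouse, adjusted p up to 0.106), Pdgfra (young 1 or old 3, adjusted p up to 0.0610), Gsn (any mouse except old 1 and old 5, adjusted p up to 0.113) and Slc1a2 (young 1, young 3, old 2 or old 3, adjusted p up to 0.0612).

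Of 65 tested genes of growth, the cell cycle and senescence, 5 (7.69%) were called, against 6.69% over all genes. Of 9 genes listed with the growth hormone axis, Egfr fell as given above and so did Lifr. Both encode receptors of other factors. Lifr, the receptor of leukaemia inhibitory factor, stood at 347, 343, 295, 229.5 and 244 CPM in the young mice and 135, 170.1, 106, 152 and 84.0 CPM in the old mice. Lifr had a log2 fold change of -1.17 (SE 0.20, adjusted p = 0.00821). The other 7 genes of this list were not called, among them Socs2 (-1.14, adjusted p = 0.128) and Igf1 (-0.22, adjusted p = 0.289). Of 14 S phase genes Ccne1 (1.59 ± 1.13 CPM in the young and 0.211 ± 0.113 CPM in the old mice, log2 fold change -2.91 (SE 0.57, adjusted p = 0.0166)) and Gins2 (-0.96 (SE 0.25, adjusted p = 0.0430)) fell and Mcm6 was at -0.70, adjusted p = 0.0731. Of 18 mitosis genes none was called (Aurka 0.70, adjusted p = 0.0652, Cdk1 -0.62, adjusted p = 0.204, Kif11 -0.38, adjusted p = 0.278). Among 8 genes of cell cycle arrest, Cdkn2a, which encodes p16 and p19ARF, was low in all mice and stood at 0.237, 0.105, 0.111, 0.337 and 0.438 CPM in the young mice and 1.03, 0.773, 0.851, 1.05 and 0.558 CPM in the old mice. Cdkn2a had a log2 fold change of 1.80 (SE 0.39, adjusted p = 0.0221). The groups were apart. Mdm2 (-0.42, adjusted p = 0.0576) and Cdkn2b (1.15, adjusted p = 0.0623) were not called. The same held for 9 secreted and stress genes (Mmp12 1.43, adjusted p = 0.133, Igfbp3 0.58, adjusted p = 0.161, Mmp13 0.87, adjusted p = 0.305) and for 7 fetal and imprinted genes (Cdkn1c 0.46, adjusted p = 0.123, Mest 0.28, adjusted p = 0.394, Peg3 0.46, adjusted p = 0.418). Calls lost when 1 mouse was left out were those of Gins2 (any mouse except young 2 and old 5, adjusted p up to 0.105) and Cdkn2a (young 1, adjusted p = 0.0568).

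The exact permutation test over the 252 splits of the 10 mice into groups of 5 cannot go below a two-sided p of 0.00794. Of the 99 genes that were named by rule and called, 84 reached that smallest p. They had already passed the edgeR test in the same 10 mice, so this count adds no independent support. The groups did not overlap for 829 of all 1031 called genes.

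Whether the age difference was particular to B6-mtAKR was asked by the interaction of age and strain over all 20 mice. No gene out of 15403 was called for it by edgeR (smallest adjusted p 0.076, 446 genes at an unadjusted p under 0.05). DESeq2 called 1 gene, Ide, the insulin-degrading enzyme, which was named after its values were seen. In B6-mtAKR it stood at 69.5, 74.2, 71.9, 69.0 and 66.1 CPM in the young mice and 55.9, 79.9, 51.2, 76.4 and 68.1 CPM in the old mice (-0.081, adjusted p = 0.746), and its age difference was 0.94 in plain B6, an interaction of -1.03 (SE 0.17, adjusted p = 0.0760) in edgeR. The adjusted p of Ide was 2.52e-05 in DESeq2 and 0.0306 in edgeR without old 2. In plain B6 mice, fitted alone, 1988 of 15554 genes were called, and 636 genes were called in both strains, which is 61.7% of those of B6-mtAKR and 32.0% of those of plain B6. Of 1030 genes called in B6-mtAKR and tested in both strains, 992 had the same sign of the age difference in plain B6. The share with the same sign among all genes tested in both strains was not worked out. The clock-gene axis was also apart between the ages in plain B6, at 4.50 to 5.68 in young and -3.12 to -2.32 in old mice. Dbp had a log2 fold change of -5.91 in B6-mtAKR and -7.40 in plain B6, and Npas2 of 5.45 and 6.97 in plain B6. The strains are set side by side for a few other genes, chosen after their values were seen. Hspa5 had 0.92 and 0.25 in plain B6 (interaction 0.66 (SE 0.27, adjusted p = 1.00)), and Hyou1 had 1.09 and 0.039 in plain B6 (interaction 1.05 (SE 0.41, adjusted p = 1.00)). Creld2 had 0.91 and -0.60 in plain B6 (interaction 1.50 (SE 0.45, adjusted p = 1.00)), and Epcam had 1.19 and -0.81 in plain B6 (interaction 1.99 (SE 0.45, adjusted p = 1.00)). None of these interactions passed the test.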

How the data were processed

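Total liver RNA was made into stranded libraries and sequenced in paired reads of 75 bases, 1 library per mouse. Per the labels and the submitters' processing notes, the authors pseudo-aligned reads with kallisto 0.43.0 (mm10), and the deposited tables give estimated counts, TPM and transcript lengths for 96626 transcripts. The transcript release was not given in the sources used here. Estimated counts were summed to genes with GENCODE M21 (1325 transcripts, with 0.296 to 0.474% of counts, had no match) and rounded. The deposited TPM values entered 1 alternative only.

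Genes that reached 5 counts in 47% or more of these mice entered the test in edgeR 4.0.16 (R 4.3.3) with TMM factors and robust quasi-likelihood, and p-values were adjusted by Benjamini-Hochberg over all genes tested with a threshold of 0.05. The model held age group alone, since batch and heteroplasmy per mouse are not in the labels. Fold changes are old minus young on the log2 scale. The exact permutation test used log2(CPM + 0.5). The labels name 5 mice per group, and no 2 libraries of the 20 pairs within groups agreed within counting noise (smallest ratio of squared difference to counting variance 43.3). On simulated data for this comparison with 15408 genes, 82% of genes changed by 1 and 100% of genes changed by 2 on the log2 scale were recovered, with 3.19% false calls. The simulation gave all genes the same spread between mice and changed only genes above 1 CPM. Recovery in the real data of genes with more spread or lower levels may be poorer and was not measured. Counting error is largest for genes near the filter.

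Members and lists were chosen with earlier results of these data known. Genes were named by rule: every clock-list gene, then outside those lists the 12 protein-coding genes with the smallest p in each direction, the 4 with the largest and the 4 with the smallest log2 fold change and up to 3 non-coding genes in each direction, all with a mean of at least 1 CPM and a log2 change of at least 1, and the 3 members with the smallest p in each role of each list. Some list members that the rule names are not reported here. Other called list members stand beside the counts of their lists. Ide, Gdf3, Ighg2c, Cd79a, Ms4a1, Clec4f, Krt7, Krt19 and Igf1 were chosen after their values were seen. Promoters came from RefSeq (GRCm38.p6). Alternatives were DESeq2 1.42.0, limma 3.58.1 (voom), another normalization, TMM factors without mtDNA-encoded genes, other filters, the replicate number as a block, young mice of 4 months alone, the clock-gene axis or 1 surrogate variable (sva 3.50.0) as a covariate, all 20 mice in the fit, length-scaled TPM, and each mouse left out in turn. Tables were made with Python 3.11.15 and pandas 2.3.3.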

Additional observations from a re-analysis of the deposited data

Results flagged for a closer look

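Among the values printed per mouse and 4 measures of the libraries, 122 groups of 5 mice were examined by Dixon's criterion (the gap of 1 mouse to the nearest other, as a share of the range of the group), which flags about 1 in 20 groups by chance, and 12 stood out. Among the young mice, young 2 was high for Cdkn1a (4.28 CPM), Egfr (308 CPM) and Hsd3b5 (11.8 CPM), young 4 for Igfbp1 (139.7 CPM) and young 5 for Gpnmb (0.243 CPM). Among the old mice, old 5 was high for Gpnmb (15.2 CPM), Igkc (102 CPM), Slco1a1 (3.13 CPM) and Trib3 (6.38 CPM), old 4 for Cyp2e1 (4578 CPM) and Hbb-bs (249 CPM), and old 3 for Celsr1 (39.1 CPM). Old 5 held 4 of the 12 and was the mouse that lay apart on the second principal component, although the number of called genes without it, 1045, was close to that with all mice. The age groups did not overlap in any of these genes except Igfbp1 and Trib3. The causes were not tested.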

How the results depend on the processing

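Of 1031 called genes, the count was 2002 with DESeq2, 1708 with 1 surrogate variable, 379 with the young mice of 4 months only and 0 with the clock-gene axis as a covariate, and it ran from 405 to 1045 when 1 mouse was left out. It was within 1.5 times of 1031 with limma-voom (969), RLE (1034), TMM without mtDNA-encoded genes (1025), no filter (822 of 21624), at least 10 counts in every mouse (994), 4 group means over all 20 mice (1220) and length-scaled TPM (848). DESeq2 shared 1028 and the surrogate variable 1030 of the called genes. For the interaction of age and strain, 0 genes became 1 with DESeq2, and leaving out 1 mouse gave 0 to 1 genes. Whether the replicate numbers pair the mice cannot be settled from 5 pairs. Deviations of same-numbered old and young mice correlated at -0.00826 to 0.403 (mean 0.106, 5 pairs). Those of differently numbered mice correlated at -0.330 to 0.180 (mean -0.0261, 20 pairs), and 1 of 5 old mice correlated best with its own number. With the replicate number as a block, 697 genes were called (416 higher, 281 lower) and 0 for the interaction. Of 116 called genes tracked by name, 73 kept the call without each mouse in turn, 50 lost it with the young mice of 4 months only and 28 with the replicate block. Of those 28, Adcy1 (adjusted p = 0.0508), Cyp2d9 (0.0555) and Ighd (0.0508) had kept it without each mouse. Of the 116, 14 lost the call with no filter, 14 with 4 group means over all 20 mice, 6 with length-scaled TPM and 4 with limma-voom. Alas2 and Hbb-bt had kept the call without each mouse but lost it with 4 group means. Ighd also lost it with length-scaled TPM. With the clock-gene axis as a covariate, no gene was called and 24 log2 fold changes turned sign. None of these 24 values was told apart from 0 in that fit, so they are not reversed age differences: Alas1 1.38, Arntl -0.49, Calr -0.67, Cbs -0.78, Ccne1 2.56, Ciart 1.91, Cyp2a5 0.36, Cyp2c29 -0.37, Dhcr7 -0.21, Dnajb11 -0.17, Fmo2 0.49, Gbp4 0.40, Gins2 0.17, Gldc -0.24, Gys2 0.074, Irf7 0.32, Mreg -0.24, Pdia4 -0.36, Per3 1.61, Srebf2 -0.44, Upp2 1.10, Uroc1 -0.13, Usp2 1.33 and Wee1 0.38. Arntl, Ciart and Per3 are themselves part of the axis, which was computed from the same mice and does not overlap between the age groups. This fit therefore cannot tell age from the state of the clock genes. The cause of the other changes was not tested. Estimated counts of near-identical genes depend on how kallisto split shared reads, and genes near the filter carry the fewest counts.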
